A study of Mus musculus with 32 samples.

Results

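The small leucine-rich proteoglycans described here are lumican (Lum), decorin (Dcn), biglycan (Bgn), fibromodulin (Fmod), osteoglycin (Ogn), prolargin (Prelp) and asporin (Aspn). They were taken by name, with earlier results of these data known, and all 7 are described whatever their values. They make up 7 of the 21829 mouse genes in the table. Polyadenylated RNA of EL08-1D2 cells was measured in 16 libraries without and 16 libraries with Azacitidine. EL08-1D2 is an established line of mesenchymal stromal cells from the liver of mouse embryos. The drug resembles cytidine, is built into DNA, and there captures the enzymes that methylate it, so that methylation falls as cells divide, and it is given in myelodysplastic syndromes. The comparison asks what the drug does to the transcripts of stromal cells themselves. All libraries come from 1 cell line, and the dose and duration of treatment are not given in the labels used here. Nothing in the labels says that libraries came from separate cultures, so p-values measure only the spread between these libraries, which may be technical. Since bulk RNA was measured, fewer expressing cells and less RNA per cell cannot be told apart. The n is 16 per group unless another n is given.

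Proteins of this family have a core of leucine-rich repeats that sits on the side of collagen fibrils, and most carry sulfated sugar chains that set the spacing and width of the fibrils. Decorin and biglycan carry chondroitin or dermatan sulfate chains, lumican and fibromodulin carry keratan sulfate or short sugar chains, asporin has none, and prolargin ties collagen to basement membranes through its heparin-binding end. Members also bind growth factors of the TGF-beta family, and free biglycan, decorin and lumican are known to act on toll-like receptors and their partners. In bone marrow and fetal liver such proteins are products of the stromal cells.

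The counts are unique molecular identifiers (UMIs), which count each captured cDNA molecule once, and levels are given as CPM, each gene's share of a library's UMIs after normalization of library sizes. Libraries without the drug held 818619 to 3210801 UMIs, and libraries with it 1226861 to 5039721. The stromal markers fitted the label for the most part: 10 of 11 were abundant enough to test, Vim stood at 1985 ± 524 (SD) CPM without and 2008 ± 533 with the drug, and Thy1 had 0 UMIs without and 26 with it. Of the 10 tested, edgeR called 2 as higher and 3 as lower with the drug, beside 3.65% and 2.0% of all tested genes. The 3 lower ones were the collagen genes Col1a1, Col1a2 and Col3a1, and Cd44 was among the higher ones. Of other cell types, endothelial markers summed to at most 1.05 CPM per library without and 2.97 with the drug, and hepatocyte markers to at most 1.05 and 2.08, though the endothelial Emcn (1 and 18 UMIs, edgeR without a filter, adjusted p 0.0101) and the hepatocyte Afp (3 and 26 UMIs, 0.0103) were called as higher. The 6 blood markers in the table summed to 8.16 to 22.3 CPM without and 14.6 to 32.2 with the drug, mostly through Cd53, Itgam and Hba-a1. Of these Cd53 rose by 0.92 on the log2 scale (edgeR adjusted p 3.13e-06), and the globin gene Hba-a1, with 36 UMIs without and 204 with the drug, by 1.93 (edgeR without a filter, adjusted p 3.0e-06). Itgam had 143 and 161 UMIs (adjusted p 0.577), and Ptprc and Spi1 had 1 and 0 UMIs without and 4 and 1 with the drug. Cartilage and tendon markers summed to 133.2 to 214.7 CPM without and 117.4 to 210.3 with the drug, mostly Sox9, and Col2a1 had 3 UMIs in each group. In 5 libraries (numbers 1 and 2 without, and 1, 2 and 4 with the drug) the gene profile stood apart on the first principal component of deviations from the group means, at 0.26 to 0.42 beside at most 0.10 in the others, whose lowest was -0.21. By mean correlation with their group 4 of the 5 were the lowest, and number 2 without the drug was not, at 0.964 beside 0.955 for number 4. The libraries were grouped by their labels into runs of 4 consecutive replicate numbers. Likeness within runs was weaker without than with the drug. Runs held a median of 26.5% and 47.3% of the variance of a tested gene's log2 level, and 9.25% and 51.2% of tested genes differed among runs by edgeR. The labels do not say what a run was, so each result is also given by run.

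Without the drug the 7 genes together took 0.376% ± 0.028 of a library's UMIs, and with it 0.350% ± 0.046. Dcn supplied 55.8% of the family's UMIs without and 53.5% with the drug, and Bgn 38.0% and 36.7%. Ogn followed with 5.28% and 6.63%. Lum made up 0.497% ± 0.154 of the family's UMIs without and 2.74% ± 1.70 with the drug. Fmod, Aspn and Prelp each stayed under 0.2% in both groups.

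Levels of different genes were set side by side per kilobase of annotated exon sequence. Whether reads came from whole transcripts or from their ends is not given in the sources used here, and for counts of transcript ends plain CPM is the fitting scale. The order of the genes was the same on both scales, except that with the drug Fmod lay above Aspn in plain CPM, at 6.87 ± 5.85 and 5.29 ± 3.08, and below it per kb. On that scale untreated cells had 363.8 ± 23.0 CPM per kb of Dcn, 240.0 ± 41.9 of Bgn, 79.2 ± 24.1 of Ogn and 7.71 ± 2.31 of Lum. Fmod at 2.11 ± 1.04, Aspn at 2.01 ± 1.31 and Prelp at 1.00 ± 0.42 CPM per kb were the lowest 3, and their ranges of 1 SD overlapped. With the drug the order of the 4 most abundant genes was the same, at 322.7 ± 46.1 for Dcn, 213.1 ± 42.6 for Bgn, 95.9 ± 58.1 for Ogn and 39.5 ± 26.3 for Lum. The spreads of Ogn and Lum overlapped with the drug and did not overlap without it. Aspn at 2.25 ± 1.31, Fmod at 2.08 ± 1.77 and Prelp at 1.04 ± 0.44 CPM per kb were the lowest 3, and their ranges of 1 SD overlapped.

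Lum was the member that passed the test. The gene, ENSMUSG00000036446, lies at chr10:97565128-97572703 on the plus strand of mm10, and its product binds collagen and is best known from the cornea, where it keeps fibrils narrow. Without Azacitidine its level ran from 8.41 to 28.6 CPM over the libraries, with a median of 19.7. With Azacitidine it ran from 44.7 to 287.7 CPM, with a median of 69.3. The groups did not overlap: every library with the drug lay above every library without it, as was so for 26 of the 9344 tested genes (0.278%). The means were 18.9 ± 5.64 CPM without and 96.6 ± 64.5 with the drug, from 497 and 3632 UMIs. Lum rose by 2.36 on the log2 scale (SE 0.25, 95% interval 1.86 to 2.87), a 5.15-fold increase with an adjusted p of 3.03e-08 by edgeR's quasi-likelihood test with Benjamini-Hochberg adjustment over all tested genes.

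It was 1 member called as higher, and 0 were called as lower, of the 4 members abundant enough to test. Over all tested genes 5.65% were called, 3.65% as higher and 2.0% as lower. The median log2 change of the 4 was 0.06, beside 0.00 over all tested genes. Fmod, Prelp and Aspn did not pass the filter on low counts, and no call was made for them without the filter either, where 3.94% of genes were called.

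**Figure D1:**
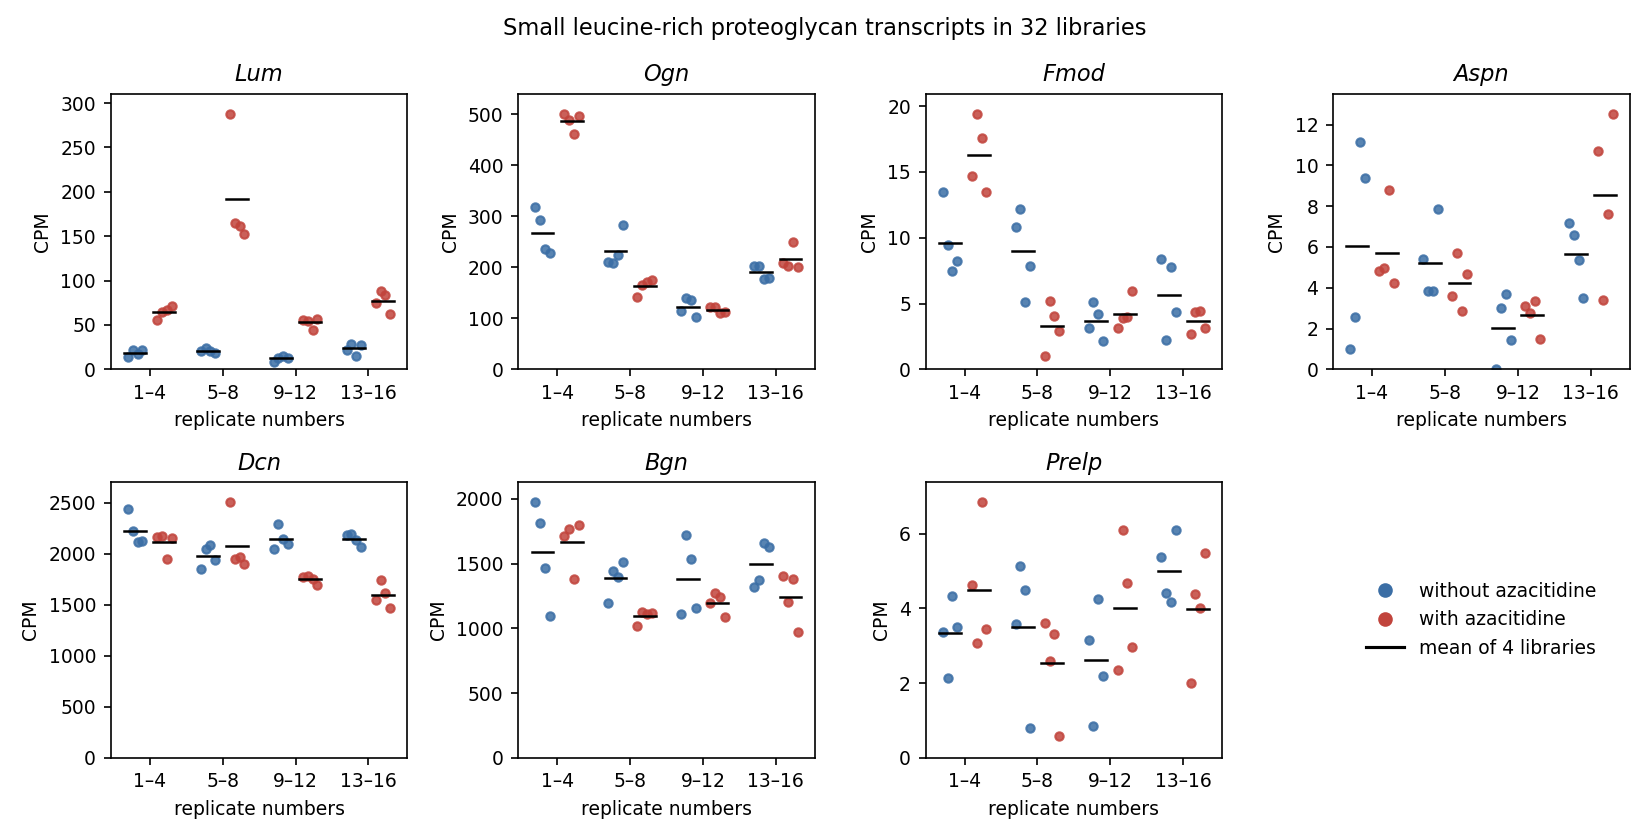
CPM of each member (vertical axes, linear, each with its own range) in every library, set out by run of 4 replicate numbers (horizontal axis); blue points are libraries without and red points libraries with Azacitidine, and bars are the means of 4 libraries. All red Lum points lie above all blue ones and numbers 5 to 8 reach 287.7 CPM, while red Ogn and Fmod points lie above the blue ones in numbers 1 to 4 alone.

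The size of the Lum increase differed between runs. In numbers 5 to 8 it went from 21.0 ± 2.01 CPM without to 191.7 ± 64.3 with the drug (n = 4 each), with treated libraries at 152.8 to 287.7 CPM. That is a log2 change of 3.17 (SE 0.29, edgeR adjusted p 0.00032). In numbers 1 to 4 it went from 18.7 ± 4.17 to 64.6 ± 6.82 CPM, a log2 change of 1.82 (SE 0.17, edgeR adjusted p 5.5e-05). Numbers 9 to 12 had the lowest Lum in both groups, at 12.2 ± 2.74 and 52.9 ± 5.61 CPM, and a log2 change of 2.04 (SE 0.17, edgeR adjusted p 6.4e-08). In numbers 13 to 16 it went from 23.5 ± 6.06 to 77.3 ± 11.3 CPM, a log2 change of 1.75 (SE 0.16, edgeR adjusted p 1.3e-08). The groups stood apart in each of the 4 runs, as they did for 10.6%, 11.6%, 6.09% and 9.43% of the tested genes in numbers 1 to 4, 5 to 8, 9 to 12 and 13 to 16. By edgeR 2.51%, 6.6%, 1.32% and 3.92% of genes were called in these runs.

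The test of the difference between runs gave an edgeR adjusted p of 0.00289 for Lum, in a test that called 3.02% of genes. With the drug Lum differed among runs (edgeR adjusted p 1e-06), as did 51.2% of all tested genes. Without it the adjusted p among runs was 0.0493, where 9.25% of genes were called. Runs held 90.0% of the variance of log2 Lum with and 61.5% without the drug, against medians over all tested genes of 47.3% and 26.5%. Without numbers 5 to 8 the increase was 1.85 on the log2 scale, or 3.61-fold, with an edgeR adjusted p of 2.48e-10, in a test that called 4.05% of genes.

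When the 4 libraries of each run were summed, so that 4 sums stood against 4, Lum kept its call at an edgeR adjusted p of 0.041, in a test that called 0.879% of genes. With the run as a term the adjusted p was 0.035 and 3.26% of genes were called. Over all genes without a filter the same sums gave adjusted p-values of 0.168 and 0.0959, and Lum was then not called.

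The genes whose levels varied most like Lum were taken over the 32 libraries, after the group means were removed, from 9343 other genes. They were Cadm1 (r = 0.79), Nip7 (0.78), Cks1b (0.78), Tfpi (0.74) and Ccnb1 (0.73). Libraries of a run shared much of this likeness: with run and group means removed the r values were 0.11, 0.20, 0.20, 0.23 and 0.31. Of the 5, Tfpi, an inhibitor of the tissue factor pathway of clotting, rose by 1.03 (SE 0.10) on the log2 scale (edgeR adjusted p 2.31e-09). Cadm1, a cell adhesion molecule, rose by 0.47 (SE 0.09, edgeR adjusted p 0.00064). Cks1b, a subunit of cyclin-dependent kinases, fell by 0.24 (SE 0.06, edgeR adjusted p 0.0152). Nip7 and Ccnb1 were not called, at log2 changes of 0.05 (edgeR adjusted p 0.718) and 0.11 (0.749).

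**Figure D2:**
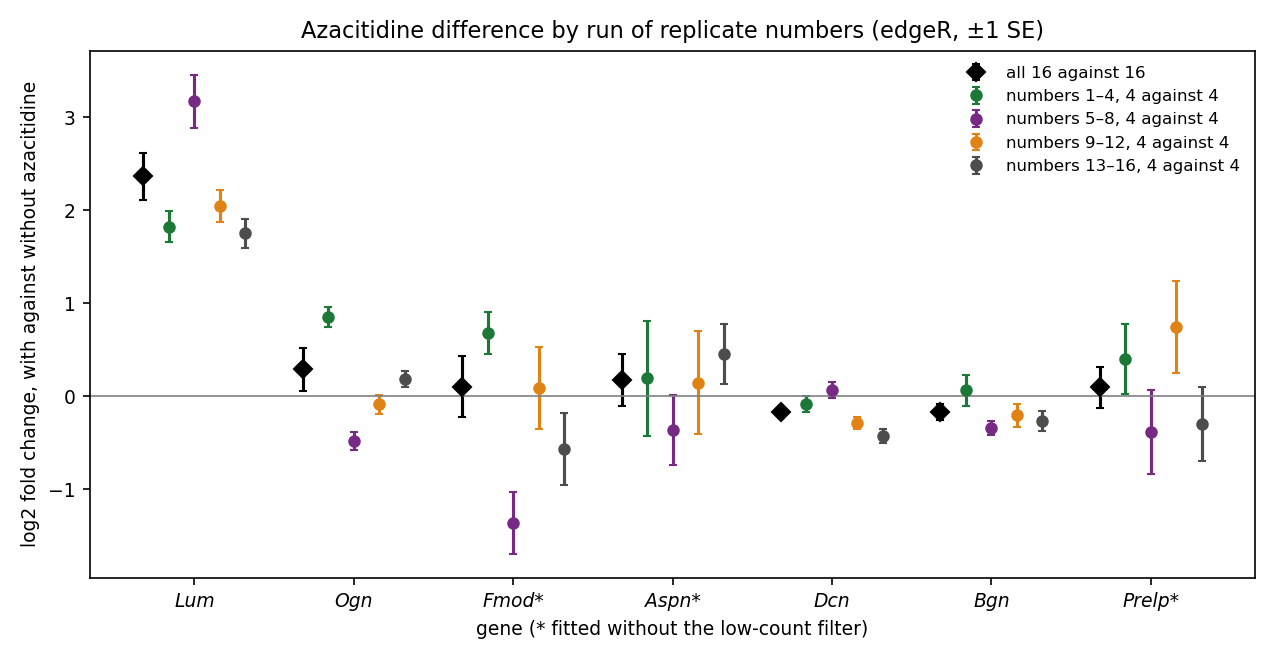
Log2 fold change with against without Azacitidine (vertical axis) for each member (horizontal axis), for all 16 against 16 libraries (black diamonds) and for each run of 4 against 4 (coloured circles), with bars of 1 SE from edgeR. Lum lies between 1.75 and 3.17 in the 4 runs, while Ogn lies between -0.49 and 0.85 and Fmod between -1.36 and 0.68.

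Osteoglycin, also called mimecan, differed between runs in direction. Ogn, ENSMUSG00000021390, lies at chr13:49608046-49624501 on the plus strand of mm10. Without the drug its level ran from 102.8 to 318.7 CPM with a median of 205.7, and with the drug from 110.0 to 501.1 CPM with a median of 188.3. The groups overlapped over nearly their whole untreated range, and 4 libraries with the drug lay above the highest one without. From 5628 and 11141 UMIs, the means were 203.2 ± 61.9 CPM without and 246.1 ± 149.0 with the drug, and the log2 change of 0.29 (SE 0.23, 95% interval -0.18 to 0.76) was not called (edgeR adjusted p 0.592).

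The 4 high libraries were those of numbers 1 to 4, where Ogn rose from 268.4 ± 44.3 to 487.2 ± 17.3 CPM (n = 4 each). The groups did not overlap there, and the log2 change was 0.85 (SE 0.11, edgeR adjusted p 0.00087). These 4 treated libraries held 2058202 to 5039721 UMIs, against 818619 to 3210801 in the untreated ones of the run, and 3 of the 4 were among those that stood apart. The treated library that did not, number 3, had 462.4 CPM. In numbers 5 to 8 it fell from 231.2 ± 34.6 to 164.3 ± 14.9 CPM, again without overlap, with a log2 change of -0.49 (SE 0.09, edgeR adjusted p 0.0009). Numbers 9 to 12 had the lowest Ogn, as they had the lowest Lum, at 123.0 ± 17.8 CPM without and 117.1 ± 6.66 with the drug, and the groups overlapped (log2 change -0.09, edgeR adjusted p 0.829). Numbers 13 to 16 had 190.1 ± 13.6 and 215.6 ± 23.1 CPM (log2 change 0.19, edgeR adjusted p 0.325). The test of the difference between runs gave an edgeR adjusted p of 2.21e-07. Runs also differed in Ogn within each group, at edgeR adjusted p-values of 8.9e-06 without and 2.8e-16 with the drug, and held 86.0% and 98.4% of its variance on the log2 scale. Without numbers 1 to 4 the log2 change of Ogn was -0.12 and was not called (edgeR adjusted p 0.747).

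Fibromodulin, which binds the same region of collagen as lumican, had a higher mean with the drug in numbers 1 to 4 and a lower one in numbers 5 to 8, as Ogn had, at far lower counts. Fmod, ENSMUSG00000041559 at chr1:134037254-134048277 on the plus strand, gave 198 UMIs without and 325 with the drug in all. It ran from 2.19 to 13.4 CPM without and from 1.03 to 19.4 with the drug, with medians of 7.61 and 4.21, and the groups overlapped. The log2 change of 0.10 (SE 0.33) was not called (edgeR without a filter, adjusted p 0.928). In numbers 1 to 4 Fmod stood at 9.63 ± 2.67 CPM without and 16.3 ± 2.69 with the drug (n = 4 each). The groups did not overlap, yet the log2 change of 0.68 (SE 0.22) was not called (edgeR without a filter, adjusted p 0.113). In numbers 5 to 8 it fell from 8.98 ± 3.14 to 3.30 ± 1.77 CPM with a log2 change of -1.36 (SE 0.33, edgeR without a filter, adjusted p 0.0022), where 4.18% of genes were called. The highest treated library there, at 5.20 CPM, lay just above the lowest untreated one, at 5.12 CPM. In the other two runs its log2 changes were 0.09 and -0.57, neither called. The test of the difference between runs gave an adjusted p of 0.00049, where 3.15% of genes were called without a filter, and 0.558 once numbers 1 to 4 were left out.

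Over the 32 libraries, with group means removed, log2 Fmod and log2 Ogn correlated at r = 0.78, Ogn and Bgn at 0.65, and Fmod and Bgn at 0.60. With run and group means removed the 3 values were 0.29, 0.66 and 0.27. Lum correlated with Ogn at 0.02 and with Fmod at -0.25, but these values pool groups that differed: with Ogn r was 0.53 over the 16 untreated and -0.15 over the 16 treated libraries, and with Fmod 0.21 and -0.45. These values describe libraries that share runs and depths and carry no test.

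**Figure D3:**
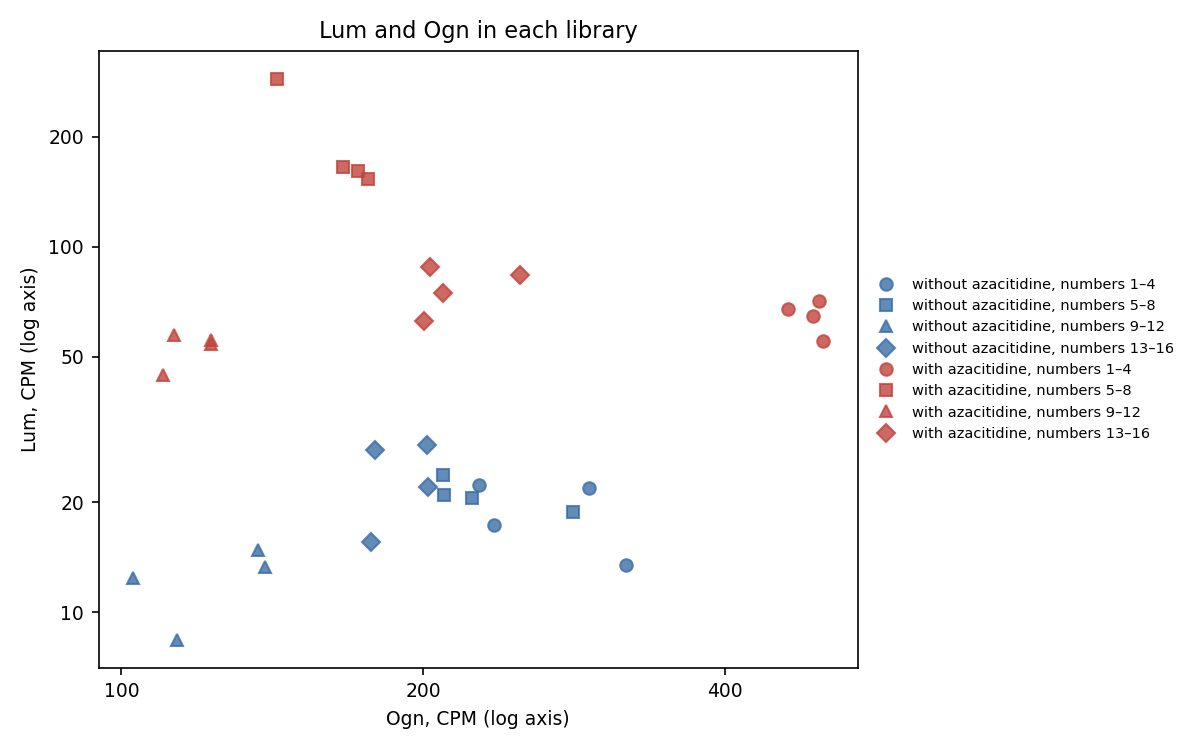
CPM of Lum (vertical axis, log scale) against CPM of Ogn (horizontal axis, log scale) in each of the 32 libraries; colour gives the group and shape the run. Treated libraries of numbers 5 to 8 are highest in Lum at 152.8 to 287.7 CPM, those of numbers 1 to 4 are highest in Ogn at 462.4 to 501.1 CPM, and untreated libraries reach at most 28.6 CPM in Lum.

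Since the drug acts on methylation at CG sites, promoter sequence is shown for Ogn, Fmod and Bgn. Their levels correlated across libraries with group means removed. With run means removed as well, Fmod correlated at only 0.29 with Ogn and 0.27 with Bgn, and shared regulation was not tested. RefSeq promoter windows of GRCm38.p6 were matched for 5 of the 7 members, namely Bgn, Fmod, Ogn, Prelp and Aspn. There was no window for Dcn or for Lum, the member that was called, so its promoter is not described. The windows printed are the 250 bases before the RefSeq start, read 5′ to 3′ on the plus strand, at chr13:49607765-49608014 for Ogn, chr1:134037004-134037253 for Fmod and chrX:73483351-73483600 for Bgn, with every CG in capitals.
Ogn: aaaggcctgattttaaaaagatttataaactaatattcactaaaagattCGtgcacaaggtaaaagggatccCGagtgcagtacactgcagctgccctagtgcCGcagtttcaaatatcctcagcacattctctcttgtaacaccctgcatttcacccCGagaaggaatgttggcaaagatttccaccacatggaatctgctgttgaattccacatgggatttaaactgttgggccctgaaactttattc
Fmod: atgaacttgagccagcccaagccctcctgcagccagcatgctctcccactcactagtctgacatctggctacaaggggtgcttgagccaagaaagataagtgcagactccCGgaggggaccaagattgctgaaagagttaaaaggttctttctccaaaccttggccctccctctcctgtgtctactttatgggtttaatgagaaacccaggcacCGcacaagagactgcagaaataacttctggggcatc
Bgn: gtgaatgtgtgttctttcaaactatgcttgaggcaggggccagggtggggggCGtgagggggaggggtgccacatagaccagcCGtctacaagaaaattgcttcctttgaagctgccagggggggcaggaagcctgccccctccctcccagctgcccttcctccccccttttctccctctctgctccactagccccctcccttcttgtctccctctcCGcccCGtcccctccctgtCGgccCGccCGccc
Ogn had 4 CG sites in this window, Fmod 2 and Bgn 7, while Prelp had 5 and Aspn 2. Over 32851 windows of the same length the median was 6, and 92.1% held at least 1. The letters TATAAA, searched on both strands, were found in Ogn and Aspn and not in the other 3 windows, and 12.4% of all windows held them. The capitals mark letters only, as methylation was not measured, and a match is no evidence of a bound factor.

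Decorin, the most abundant member and a binder of collagen and TGF-beta, moved little. Dcn, ENSMUSG00000019929 at chr10:97479609-97518143 on the plus strand, ran from 1847 to 2436 CPM without the drug with a median of 2125, and from 1472 to 2503 CPM with it, with a median of 1843. The groups overlapped, although 8 libraries with the drug lay below the lowest one without. The log2 change was -0.17 (SE 0.06, 95% interval -0.29 to -0.05) and just missed the threshold (edgeR adjusted p 0.0789). It was past the threshold with library totals alone (edgeR adjusted p 0.0489, 5.48% of genes called), DESeq2 (adjusted p 0.045, 6.05% of genes called) and limma-voom (adjusted p 0.0408, 6.01% called), with the run as a term (edgeR adjusted p 0.0116) and without numbers 1 to 4 (0.042), the 5 libraries that stood apart (0.0347) or numbers 5 to 8 (0.0132). When the libraries of a run were summed the call was lost, at an edgeR adjusted p of 0.972, or 0.294 with a run term. It had the other sign, at 0.15, when libraries were scaled by their spike-in RNA. That scaling moved the median log2 change of all tested genes from 0.00 to 0.31, so on it too Dcn lay below the median gene.

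By run, Dcn fell in numbers 9 to 12, from 2144 ± 105 to 1750 ± 42.1 CPM (log2 change -0.29, SE 0.07, edgeR adjusted p 0.0276, n = 4 each). It also fell in numbers 13 to 16, from 2145 ± 59.0 to 1594 ± 113 CPM (log2 change -0.43, SE 0.07, edgeR adjusted p 0.00049). Neither pair of groups overlapped. Numbers 1 to 4 and 5 to 8 had log2 changes of -0.08 (edgeR adjusted p 0.671) and 0.07 (0.751) with overlapping groups, and the test of the difference between runs gave an adjusted p of 0.0123.

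Biglycan is the close relative of decorin that also signals through toll-like receptors. Bgn, ENSMUSG00000031375 at chrX:73483602-73495933 on the plus strand, ran from 1095 to 1972 CPM without the drug with a median of 1455, and from 973 to 1796 CPM with it, with a median of 1223. The groups overlapped widely, and the log2 change of -0.17 (SE 0.09, 95% interval -0.35 to 0.01) was not called (edgeR adjusted p 0.330), and was 0.12 with spike-in scaling. In numbers 5 to 8 Bgn fell from 1388 ± 135 to 1094 ± 51.4 CPM (n = 4 each) without overlap (log2 change -0.34, SE 0.08, edgeR adjusted p 0.0059). The other runs had log2 changes of 0.06, -0.21 and -0.26 and no call, but without a filter numbers 13 to 16 were called too (edgeR adjusted p 0.0162), where 2.99% of genes were. The test of the difference between runs gave an adjusted p of 0.610. Without numbers 1 to 4 the log2 change of Bgn was -0.27 and was called (edgeR adjusted p 0.0152), with 6.27% of genes called, and without the 5 libraries that stood apart it was -0.23 (edgeR adjusted p 0.0389), with 6.08% called.

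Prolargin and asporin gave few UMIs. Prelp, ENSMUSG00000041577 at chr1:133910304-133921414 on the minus strand, had 94 UMIs without and 142 with the drug, and its level of 3.61 ± 1.51 CPM compared with 3.75 ± 1.59. The log2 change of 0.09 (SE 0.22, 95% interval -0.35 to 0.54) was not called (edgeR without a filter, adjusted p 0.903). Aspn, ENSMUSG00000021388 at chr13:49544443-49567565 on the plus strand, codes for a collagen-binding protein that also binds TGF-beta. It had 119 UMIs without and 188 with the drug, at 4.74 ± 3.07 and 5.29 ± 3.08 CPM, and its log2 change of 0.17 (SE 0.28, 95% interval -0.40 to 0.74) was not called (edgeR without a filter, adjusted p 0.820). In neither gene did the test find a difference between runs in the size of the change (edgeR without a filter, adjusted p 0.841 for Prelp and 0.993 for Aspn). At these counts changes inside the intervals were not detectable.

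Several members lie beside relatives on the chromosome, and these neighbours had few UMIs in both groups. On chromosome 10 Dcn and Lum are followed on the same strand by Kera (keratocan) and Epyc (epiphycan), whose products belong to cornea and growth cartilage. Kera had 4 UMIs without and 14 with the drug over all libraries. Epyc had 0 UMIs without and 20 with the drug, at least 4.73-fold higher against a limit of 3 counts over the untreated group. Its edgeR adjusted p without a filter was 0.0022, but it was 0.296 with DESeq2, 0.0965 with limma-voom and 0.216 with sums of runs, and 12 of the 20 UMIs came from numbers 1 to 4 and 7 from numbers 5 to 8. On chromosome 13 Ecm2, Aspn, Omd (osteomodulin) and Ogn lie in a row, and Omd had 25 UMIs without and 81 with the drug. Of these 81 UMIs 66 came from numbers 1 to 4, the run in which its neighbour Ogn rose. Omd stood there at 1.06 ± 1.28 CPM without and 4.06 ± 2.26 with the drug. The groups overlapped in that run, and Omd was not called (edgeR without a filter, adjusted p 0.174). In numbers 9 to 12 Omd had 7 UMIs without and 0 with the drug. Over all libraries its edgeR adjusted p without a filter was 0.407. On chromosome 1 Optc (opticin) lies beside Prelp and had 57 and 60 UMIs, at 2.03 ± 1.16 CPM without and 1.56 ± 0.86 with the drug. Its log2 change of -0.37 was not called (edgeR without a filter, adjusted p 0.625).

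Of 11 other genes of the family 10 were in the table, and 2 were abundant enough to test, Podnl1 and Tsku. Of these 2, 0 were called by edgeR, DESeq2 or limma-voom, beside 5.65% of all tested genes by edgeR. Of the 2, 0 had an unadjusted edgeR p under 0.05, and without the filter Epyc was called by edgeR alone. Podnl1, a podocan relative, was the most abundant of them at 107.8 ± 21.2 CPM without and 98.5 ± 21.1 with the drug (log2 change -0.14, SE 0.10, edgeR adjusted p 0.535). Of 9 tested proteoglycans outside the family 1 was called, as lower, beside 2.0% of all tested genes, and their median log2 change was -0.11. Without the filter, where 3.94% of all genes were called in either direction, 3 genes of few UMIs were called as higher besides. Esm1 (endocan) had 2 UMIs without and 70 with the drug (edgeR adjusted p 2.27e-07), Srgn (serglycin) 9 and 49 (0.018) and Cspg4 25 and 88 (0.0302). With limma-voom the adjusted p was 0.0584 for Srgn and 0.0563 for Cspg4. The tested gene called as lower was Vcan (versican), the large proteoglycan that binds hyaluronan, which fell by 0.52 (SE 0.09) on the log2 scale from 137.9 ± 28.3 to 95.9 ± 13.5 CPM (edgeR adjusted p 4.51e-05), and had a log2 change of -0.20 without a call under spike-in scaling. The syndecan Sdc2 had the most UMIs in that group and was not called, at 438.7 ± 36.0 and 410.0 ± 55.5 CPM (log2 change -0.10, edgeR adjusted p 0.418).

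Enzymes that build the sugar chains were not called where abundant enough to test, beside 5.65% of all tested genes by edgeR. With lists this short, an absence of calls does not set them apart from other genes. Of 13 tested genes for linker, chondroitin and dermatan sulfate synthesis 0 were called by edgeR, DESeq2 or limma-voom, 0 had an unadjusted edgeR p under 0.05, and their median log2 change was -0.02. Chst12, a chondroitin sulfotransferase and the most abundant of them, had 91.3 ± 13.5 CPM without and 87.1 ± 10.2 with the drug (log2 change -0.07, edgeR adjusted p 0.693). Without the filter the sulfotransferase Chst13 was called as higher, at 5 UMIs without and 40 with the drug (edgeR adjusted p 0.0015). That fit called 3.94% of all genes. Of 5 tested genes for keratan sulfate synthesis and sulfate supply, 0 were called by edgeR, DESeq2 or limma-voom, and the median was -0.04. An unadjusted edgeR p under 0.05 was found for 3 of the 5, and the share of all genes at that threshold is not given here. With the run as a term Papss1, which makes the sulfate donor, was called as lower (log2 change -0.15 without that term, edgeR adjusted p 0.0295 with it). Among all genes 10.6% were called with that term. B4galt1, a galactosyltransferase, had 180.0 ± 24.5 and 175.9 ± 24.6 CPM (log2 change -0.04, edgeR adjusted p 0.867).

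Of 14 tested collagens and other fibril proteins to which the family binds, 0 were called as higher and 6 as lower, beside 3.65% and 2.0% of all tested genes, and the median log2 change was -0.38, against -0.06 with 0 called under spike-in scaling, where the median of all genes was 0.31. All 14 had an unadjusted edgeR p under 0.05, the highest being 0.0487 for Col6a2 (edgeR adjusted p 0.287). The share of all genes at that threshold is not given here, so this count has no baseline. Col3a1, the main chain of type III collagen, fell by 0.65 (SE 0.07) on the log2 scale from 4460 ± 440 to 2849 ± 411 CPM (edgeR adjusted p 6.24e-09). Col5a3, a chain of type V collagen, fell by 0.65 (SE 0.09, edgeR adjusted p 1.65e-06), Fn1 (fibronectin) by 0.47 (SE 0.08, 5.36e-05) and Col1a2 of type I collagen by 0.39 (SE 0.08, 0.00102). With 4 sums of runs against 4, 0 of the 14 were called (0.879% of all genes), and with the run as a term 3 were (3.26%), while 12 were called with the run as a term over single libraries, where 10.6% of all genes were. Without numbers 1 to 4, 9 of 13 tested were called (6.27% of all genes).

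Of 10 tested proteases and helpers that act on these proteins or on procollagen, 1 was called, as lower, beside 2.0% of all tested genes, and the median log2 change was 0.05. Adamts5, an aggrecanase, fell by 0.29 (SE 0.09) on the log2 scale from 41.4 ± 9.77 to 33.6 ± 4.66 CPM (edgeR adjusted p 0.0433), and had a log2 change of 0.02 with spike-in scaling. It was not called without the filter (edgeR adjusted p 0.0567), without numbers 1 to 4 (0.0723) or without the 5 libraries that stood apart (0.0558). Pcolce, the procollagen proteinase enhancer and the most abundant, had 4312 ± 472 and 4516 ± 756 CPM (log2 change 0.07, edgeR adjusted p 0.714). Mmp3 had 115.3 ± 32.8 and 189.2 ± 85.5 CPM (log2 change 0.72, SE 0.24, edgeR adjusted p 0.0782). Its log2 changes by run were 0.75, -0.57, 0.98 and 0.94, and the test of the difference between runs gave an edgeR adjusted p of 7.0e-07. With the run as a term Mmp3 was called as higher (edgeR adjusted p 0.0020) and Mmp9 and Adamts5 as lower (0.0053 and 0.0166), where 10.6% of all genes were called.

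Of 19 tested receptors and growth factors bound by the family, 2 were called as higher and 2 as lower, beside 3.65% and 2.0% of all tested genes, and the median log2 change was 0.03. Cd44, the hyaluronan receptor, rose by 0.42 (SE 0.05) on the log2 scale from 86.4 ± 5.87 to 115.3 ± 12.7 CPM (edgeR adjusted p 2.49e-07). Cd14, the co-receptor of toll-like receptors that binds lumican and biglycan, rose by 0.70 (SE 0.16) from 8.32 ± 3.28 to 13.7 ± 3.43 CPM (edgeR adjusted p 0.0028). Cd14 is also expressed by blood cells, and the summed level of the blood markers was higher with the drug too, at the ranges given above. Its part in the Cd14 result was not tested. Ccn4, a matrix protein that binds decorin and biglycan, fell by 0.36 (SE 0.05) from 137.9 ± 9.73 to 107.3 ± 9.84 CPM (edgeR adjusted p 9.14e-07), with a log2 change of -0.03 under spike-in scaling. Met, a receptor that decorin holds in check, fell by 0.28 (SE 0.07, edgeR adjusted p 0.0136), with a log2 change of 0.08 under spike-in scaling, and was not called without numbers 1 to 4 (adjusted p 0.178) or without the 5 libraries that stood apart (0.079). With 4 sums of runs against 4, 0 of these genes were called (0.879% of all genes). With the run as a term the sums called Cd44 and Cd14 as higher (edgeR adjusted p 0.0029 and 0.0214) and Ccn4 as lower (0.0065), where 3.26% of all genes were called. Without the filter P2rx7, a receptor for ATP, was called as higher too, at 20 UMIs without and 77 with the drug (edgeR adjusted p 0.0125, limma-voom 0.059). The edgeR fit without the filter called 3.94% of all genes.

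**Figure D4:**
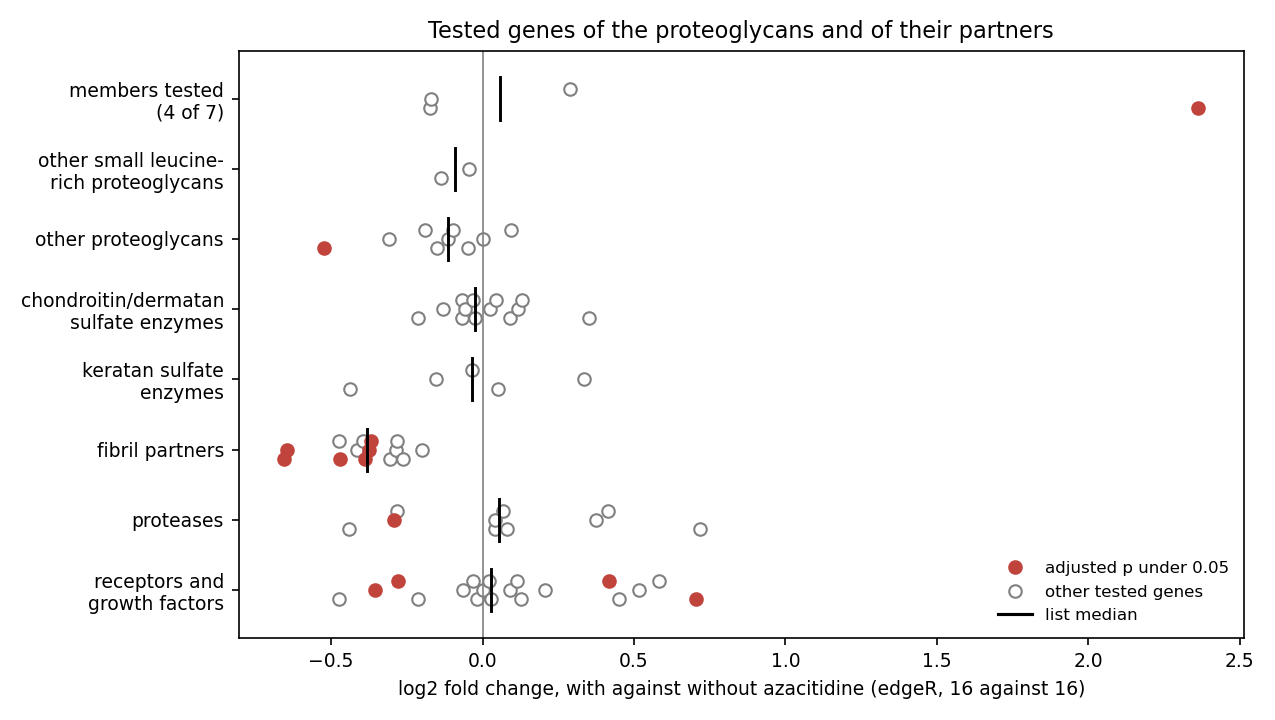
Log2 fold change with against without Azacitidine (horizontal axis, edgeR, 16 against 16 libraries) of each tested gene in the family and its partners (rows); filled red points passed an adjusted p under 0.05, open points did not, and black bars are the medians of the rows. Lum at 2.36 lies apart from every other gene shown, and the fibril partners have a median of -0.38 (-0.06 with spike-in scaling).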

How the data were processed

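Total RNA of EL08-1D2 cells was turned into barcoded, pooled cDNA with unique molecular identifiers and sequenced, per the labels' protocols. STAR 2.4.0, bedtools 2.17.0 and the build mm10 were used, per the submitters' processing notes. The annotation, the collapsing of identifiers and the use of strand are not given in the sources used here. The deposited values are counts (UMIs per gene and library), which the authors had not normalized as far as the whole numbers show. The 68 rows of spike-in RNA (0.106% of UMIs) stayed out of library sizes and tests. Of the 21829 mouse genes 21506 had a symbol in GENCODE M21, including all 7 members.

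Groups came from the treatment label. The members, the gene lists and the tests were chosen with earlier results of these data known. The main test was edgeR 4.0.16 (robust quasi-likelihood fit, two-sided) with TMM normalization and its default filter by group. The filter kept 9344 genes with 98.8% of counts and removed 12485. A gene was called at a Benjamini-Hochberg adjusted p under 0.05. CPM used TMM library sizes, and SEs were derived from the F statistic. Fmod, Prelp and Aspn were fitted without the filter. Within a run 4 libraries were tested against 4. The difference between runs was the F test of the interaction of run and group, and the difference among runs was tested within a group. Pairs of libraries in a group differed by more than sampling noise (lowest chi-square per degree of freedom 1.13 without and 1.11 with the drug, over genes with a joint count of at least 10).

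The text names all members, per list the called genes of lowest p, at most 4, and, where fewer than 2 were called, the tested gene with the most UMIs, and the 5 genes most like Lum by Pearson correlation of log2(CPM + 1) after group means were removed, among genes whose mean reached 5 UMIs in either group. Chromosomal neighbours, marker genes and listed genes called without the filter or with a run term were named after their values were seen. Alternatives were DESeq2 1.42.0 and its size factors, limma-voom (limma 3.58.1), library totals, spike-in scaling, no filter, a mean of 5 UMIs, thinning to 818619 UMIs, a replicate block, a run term, sums of runs, left-out libraries and an adjusted p under 0.01. Leaving out numbers 5 to 8 and sums without a filter were added after the data were seen. R 4.3.3, Python 3.11.15, numpy 2.4.6, pandas 2.3.3 and matplotlib 3.10.9 were used, and the fits were tested on simulated data.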

Additional observations from a re-analysis of the deposited data

Results flagged for a closer look

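For 4 of the 7 members the size of the difference between groups varied between the runs of 4 replicate numbers. The test was edgeR's run by group interaction, adjusted over all genes, which called 3.02% of genes, and 3.15% without a filter. For Ogn the adjusted p was 2.21e-07: it rose in numbers 1 to 4 and fell in numbers 5 to 8. For Fmod it was 0.00049 in the fit without a filter, and 0.558 once numbers 1 to 4 were left out. Its log2 changes were 0.68 in numbers 1 to 4 and -1.36 in numbers 5 to 8, of which the second passed the test. For Lum it was 0.00289: the direction was the same in each run, and the log2 changes ran from 1.75 to 3.17. For Dcn it was 0.0123, with decreases in numbers 9 to 12 and 13 to 16. The labels do not say what sets a run apart, so run and any condition shared by its libraries cannot be told apart.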

How the results depend on the processing

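Lum was higher in each of the 18 settings tried, with log2 changes of 1.85 to 2.75. It lost its call with sums of runs without a filter, at 2.35 (adjusted p 0.168) and, with a run term, 2.21 (0.0959). Dcn became called as lower with library totals and DESeq2 (log2 change -0.17 in both), limma-voom (-0.19), the replicate block and the run term (-0.18 in both), without numbers 1 to 4 (-0.21), without 5 libraries (-0.20) and without numbers 5 to 8 (-0.25), turned to 0.15 under spike-in scaling, and was not called with sums of runs (adjusted p 0.972, or 0.294 with a run term). Bgn became called without numbers 1 to 4 (-0.27), without 5 libraries (-0.23) and with sums of runs, a run term and no filter (-0.22), and turned to 0.12 under spike-in scaling. Fmod changed sign with limma-voom (-0.064), the replicate block (-0.023), the run term (-0.059), sums (-0.020), sums with a run term (-0.16), without numbers 1 to 4 (-0.71) and without 5 libraries (-0.36), none of them called, and its interaction p became 0.558 without numbers 1 to 4. Without numbers 1 to 4 Ogn turned to -0.12 and Prelp to -0.062, and Aspn turned to -0.013 in thinned libraries. Members called as lower became 1 with library totals, DESeq2, limma-voom, the replicate block and the run term, and 2 without numbers 1 to 4 or the 5 libraries.

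Genes called as higher, 341 in the main test, numbered 185 with thinning, 518 with the replicate block, 563 with the run term, 105 with sums, 718 without a filter and 215 at an adjusted p under 0.01. Genes called as lower, 187 in the main test, numbered 1 with spike-in scaling, 93 with thinning, 379 with the block, 430 with the run term, 3 with sums, 86 with sums and a run term and 81 at an adjusted p under 0.01. Same-numbered libraries of the 2 groups correlated over 0.1 in 12 of 16 pairs (from -0.29 to 0.83), and 4 of 16 libraries without and 3 of 16 with the drug correlated best with their own number, so the numbers were not taken as pairs. The block moved calls over all genes by over 1.5 times and Lum to 2.24 (edgeR adjusted p 3.38e-08). The causes of these shifts were not tested. Depth limits Prelp, Aspn and Fmod, which had at most 82 UMIs in a library.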
